A study of Rattus norvegicus with 45 samples.

Results

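The medial preoptic area of female rat pups whose dams received 50 µg/kg bisphenol A (BPA) was compared with that of female pups whose dams received corn oil. All genes of the female count table were compared over 11 libraries, 6 of BPA and 5 of oil, out of 22 female libraries and 45 libraries in the series. Dosing ran from gestation day 8 to birth on gestational day 21 to 22, and the tissue was taken on postnatal day 10. No transgene or deletion was involved, each library came from 1 pup of a different litter, and neither the rat strain nor the route of dosing is given in the labels. The design text names maternal licking/grooming and nest attendance, observed on postnatal days 1 to 5, as possible moderators. Dams were assigned to treatments as cage-pairs, and the labels do not say which litters came from 1 cage, a dependence the tests do not model.

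The medial preoptic area is a region at the front of the hypothalamus that takes part in mating, parental behaviour and body temperature control. Its neurons carry receptors for gonadal steroids, and its development is shaped by these hormones around birth. BPA is a plastics monomer that binds the estrogen receptors weakly and binds the estrogen-related receptor gamma, encoded by Esrrg. The region borders the third ventricle, whose wall is lined by ependymal cells. These cells carry tufts of motile cilia, each built on an axoneme of microtubule doublets with dynein arms, radial spokes and a central pair, and their beating moves cerebrospinal fluid. Their formation runs through Tp73, Mcidas, Myb and Foxj1, transcriptional regulators of the multiciliated state.

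Messenger RNA was measured by 3' Tag-seq, which counts 1 tag per transcript near its 3' end, so that a level is given below as CPM, the count of a gene relative to the TMM-scaled total of its library. The totals ran from 4397460 to 5540478 counts in the BPA libraries and from 5343701 to 5720907 in the oil libraries, and 5 of the 6 BPA libraries were shallower than every oil library. In bulk tissue, fewer cells of a type and less RNA per cell cannot be told apart. Region markers were mixed. Six3, of the preoptic and anterior hypothalamic marker list, had 44.3 to 59.6 CPM over the 22 female libraries. Calcr, a receptor of parental neurons, had 5.71 to 36.9 CPM in them and Nkx2-1 had 2.21 to 13.1 CPM. Gal reached at most 2.10 CPM and Sim1 at most 0.463 CPM, while the hypothalamic factors Hmx3, Six6 and Otp were at 0 in each of the 22. Whether Six3 came from preoptic cells here was not tested. Genes of striatal projection neurons were abundant, with Pde10a at 338.1 to 643 CPM in BPA libraries and 390.8 to 778.5 CPM in oil libraries. The choroid plexus gene Ttr reached 183 CPM in 1 BPA library and 180.3 CPM in 1 oil library, against medians of 1.31 CPM in BPA and 0.566 CPM in oil. Between those extremes the summed choroid plexus markers ran from 59.5 to 67.5 CPM in the other 5 BPA libraries and from 56.3 to 78.8 CPM in the other 4 oil libraries.

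No gene differed between BPA and oil females past an adjusted p of 0.05. Of 18354 genes tested with edgeR's quasi-likelihood test, 0 were called (0% of genes tested), as with DESeq2 and with voom, and the lowest adjusted p was 1.00. At an unadjusted p under 0.05 there were 667 genes (3.63%), 393 of them higher in BPA (2.14%) and 274 lower (1.49%). All 6 BPA libraries lay above all 5 oil libraries for 46 genes (0.251%) and below them for 35 (0.191%). For 75.5% of genes the 95% interval of the BPA minus oil difference excluded any change beyond 1.5-fold, and for 94.3% any change beyond 2-fold. In a fit restricted to these 11 libraries, 1 of 17614 genes was called (0.00568%), Pnma2, lower in BPA with an adjusted p of 0.0152. What follows therefore describes values, gene by gene and group by group, whose differences did not pass the test over all genes.

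The 24 genes with the lowest p, 12 in each direction, were named by rule. Among the 12 higher ones, Tp73, a relative of p53 that multiciliated cells need, came first. Tp73 had a lowest, median and highest level of 4.61, 6.14 and 8.34 CPM in BPA females, against 4.07, 3.19, 3.58, 2.99 and 2.08 CPM in the 5 oil females. The lowest BPA library stood above the highest oil library. The log2 difference was 0.97 ± 0.22 (SE; 95% interval 0.53 to 1.41). These levels rest on 26 to 36 counts per BPA library and 11 to 22 per oil library.

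Cimap1b, a protein of ciliary microtubules, had the largest difference of the 24. Its levels were 1.31, 2.0 and 3.24 CPM in BPA females as lowest, median and highest, against 0.185, 0.708, 0.188, 0.352 and 0.566 CPM in oil females. The groups did not overlap, and the log2 difference was 2.33 ± 0.59 (interval 1.12 to 3.53). The counts behind it are few, 6 to 17 per BPA library and 1 to 4 per oil library. Ak7, an adenylate kinase of the motile axoneme, was at 4.17, 6.53 and 13.7 CPM in BPA females, against 2.22, 2.48, 2.26, 2.29 and 1.13 CPM in oil females. Every BPA library was again above every oil library, with a log2 difference of 1.84 ± 0.47. Cfap77, a protein attached to the microtubule doublets, was at 4.17, 5.65 and 7.67 CPM in BPA females, against 2.41, 3.36, 2.64, 2.81 and 3.21 CPM in oil females. It too had no overlap, and its log2 difference was 0.99 ± 0.27.

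B9d1 belongs to the transition zone at the base of the cilium, where entry into the cilium is gated. It had 29.2, 33.8 and 35.5 CPM in BPA females, against 27.6, 28.0, 26.0, 27.8 and 27.5 CPM in oil females. The groups did not overlap although the difference was small, 0.28 ± 0.07 on the log2 scale. Both groups were tight, and the 5 oil libraries spanned only 26.0 to 28.0 CPM.

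The other 7 of the 12 do not belong to cilia. Ddx11, a DNA helicase of sister chromatid cohesion, had a log2 difference of 0.49 ± 0.13, Fkbp10, which helps fold collagen in the endoplasmic reticulum, 0.55 ± 0.15, and Lpxn, an adaptor at cell adhesions, 0.64 ± 0.17. Pmf1, part of the kinetochore, differed by 0.59 ± 0.17, Ss18, a subunit of BAF chromatin remodellers, by 0.26 ± 0.08, and Sardh, a mitochondrial enzyme that breaks down sarcosine, by 0.68 ± 0.20. Dlat-ps1, a pseudogene that can share reads with Dlat, differed by 1.05 ± 0.25 at 9 to 10 counts per BPA library and 4 to 7 per oil library. Of all 12, the BPA libraries stood wholly above the oil libraries in 8, against 0.251% of all genes, a count that the choice by lowest p favours.

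**Figure D1:**
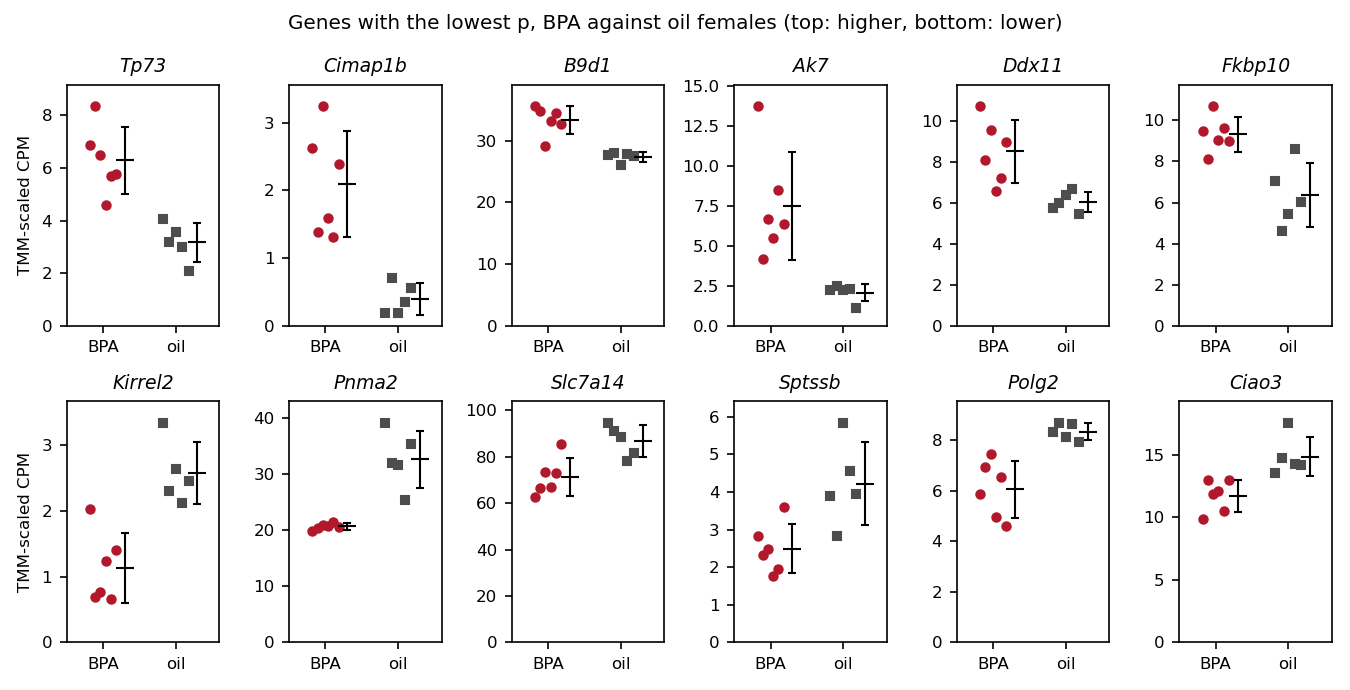
Level of the 6 top genes by p among those higher and among those lower in BPA, in TMM-scaled CPM on axes that start at 0, with a circle for each BPA library and a square for each oil library of females; the bar beside each group is its mean ± SD (n = 6 BPA and 5 oil). Tp73, Cimap1b, B9d1 and Ak7 show no overlap, and the BPA libraries of Pnma2 sit between 19.8 and 21.4 CPM.

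Among the 12 lower genes, Kirrel2 and Pnma2 came first. Kirrel2, an adhesion protein of the nephrin family, had 0.655, 1.00 and 2.02 CPM in BPA females as lowest, median and highest, against 3.33, 2.30, 2.64, 2.11 and 2.45 CPM in oil females. The highest BPA library lay just below the lowest oil library, at 3 to 10 counts in BPA libraries and 12 to 18 in oil libraries. The log2 difference was -1.15 ± 0.32 (interval -1.82 to -0.49). Pnma2 encodes a neuronal protein derived from a retrotransposon capsid and known as a target of paraneoplastic antibodies. It had 19.8, 20.7 and 21.4 CPM in BPA females, against 39.1, 31.9, 31.6, 25.3 and 35.3 CPM in oil females. The BPA libraries were nearly equal while the oil libraries spread widely above them, with a log2 difference of -0.66 ± 0.19 (interval -1.05 to -0.27).

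Slc7a14, a lysosomal member of the cationic amino acid transporter family, had 62.8, 70.0 and 85.5 CPM in BPA females, against 94.6, 91.0, 88.7, 78.1 and 81.5 CPM in oil females. Its groups overlapped, and the log2 difference was -0.28 ± 0.08. Polg2, the accessory subunit of the mitochondrial DNA polymerase, had 4.59, 6.20 and 7.43 CPM in BPA females, against 8.33, 8.67, 8.10, 8.62 and 7.92 CPM in oil females. All BPA libraries were below all oil libraries for Polg2, and the log2 difference was -0.46 ± 0.14.

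The remaining 8 spanned several roles. Sptssb, a small subunit of the enzyme that starts sphingolipid synthesis, differed by -0.75 ± 0.23 and Diras1, a Ras-like small GTPase, by -0.76 ± 0.24. The log2 difference was -0.34 ± 0.11 for Ciao3, of cytosolic iron-sulfur cluster assembly, -0.27 ± 0.09 for Ero1a, an oxidase of the endoplasmic reticulum, and -0.25 ± 0.08 for Slc15a4, a lysosomal transporter of histidine and peptides. The complement component C2 differed by -0.50 ± 0.16, Mfhas1, a leucine-rich repeat protein with a GTPase-like domain, by -0.17 ± 0.06, and the pseudogene Smarce1-ps6, which can share reads with Smarce1, by -0.85 ± 0.25. The BPA libraries lay wholly below the oil libraries in 6 of the 12 lower genes, chosen in the same way, against 0.191% of all genes. The folds of the 12 higher genes ran from 1.20 to 5.01 and those of the 12 lower genes from 0.450 to 0.891.

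Genes of motile cilia had most of their members higher in BPA females. The list of axoneme proteins held 71 genes of the table, of which 63 passed the filter on low counts and 8 did not. Of the 63, 61 were higher in BPA, against 49.7% of all genes tested. The median log2 difference was 0.41, against 0.00 over all genes. At an unadjusted p under 0.05, 27 of the 63 were higher and 0 lower, where 2.14% of all genes were higher. Without BPA replicate 1 this count was 14, without oil replicate 4 it was 17 and without oil replicate 5 it was 14, while 58 to 61 members were higher when any 1 library was left out. Without both libraries high in choroid plexus markers, BPA replicate 5 and oil replicate 3, 61 were higher and the count at that p was 19. None of the 63 passed the adjusted threshold. Cilia genes were picked for this list with earlier results of these libraries known, so the counts are a description and not independent evidence of a direction.

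By role, the dynein arm heavy chains, the motors of the axoneme, were higher in 10 of 10, with a median log2 difference of 0.33 and 5 at an unadjusted p under 0.05. Dnah5, an outer arm heavy chain, had 15.3, 18.8 and 22.8 CPM in BPA females as lowest, median and highest, against 14.8, 14.7, 13.4, 15 and 11.7 CPM in oil females. No BPA library of Dnah5 was as low as any oil library, with a log2 difference of 0.42 ± 0.12. Dnah6, an inner arm heavy chain, had 6.72, 7.84 and 13.3 CPM in BPA females, against 2.78, 5.49, 6.03, 2.64 and 4.72 CPM in oil females. Its groups did not overlap either (0.98 ± 0.32), and its highest value came from BPA replicate 1.

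The dynein intermediate and light chains with their assembly and docking factors were higher in 8 of 8 tested, with a median of 0.58. Dnai1, an intermediate chain of the outer arm, differed by 0.52 ± 0.25 and Dnai4 by 0.23 ± 0.09. The nexin-dynein regulatory complex, which links neighbouring doublets, was grouped with the molecular rulers of the axoneme, Ccdc39 and Ccdc40. Of the 5 genes tested in this group 4 were higher, with a median of 0.14, the value of Ccdc39. Drc3, of the complex, was 1 of only 2 lower genes of the whole list (-0.19 ± 0.11). Radial spokes and the central apparatus were higher in 15 of 16, with a median of 0.21. Hydin, a giant protein of the central pair, differed by 0.57 ± 0.24 and Cfap46, also of the central apparatus, by 1.36 ± 0.54. The tektins and other microtubule inner proteins, which brace the doublets from within, were higher in 13 of 13 with a median of 0.35, and 3 of them, Cimap1b, Cfap77 and Enkur, had no overlap. Enkur had 16.5, 18.8 and 25.0 CPM in BPA females, against 10.2, 11.9, 16.0, 12.8 and 13.2 CPM in oil females, and its log2 difference was 0.64 ± 0.20. Among the rest, Cfap44, a protein tied to the inner dynein arms, differed by 0.76 ± 0.25 and Cfap65 by 1.70 ± 0.55.

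**Figure D2:**
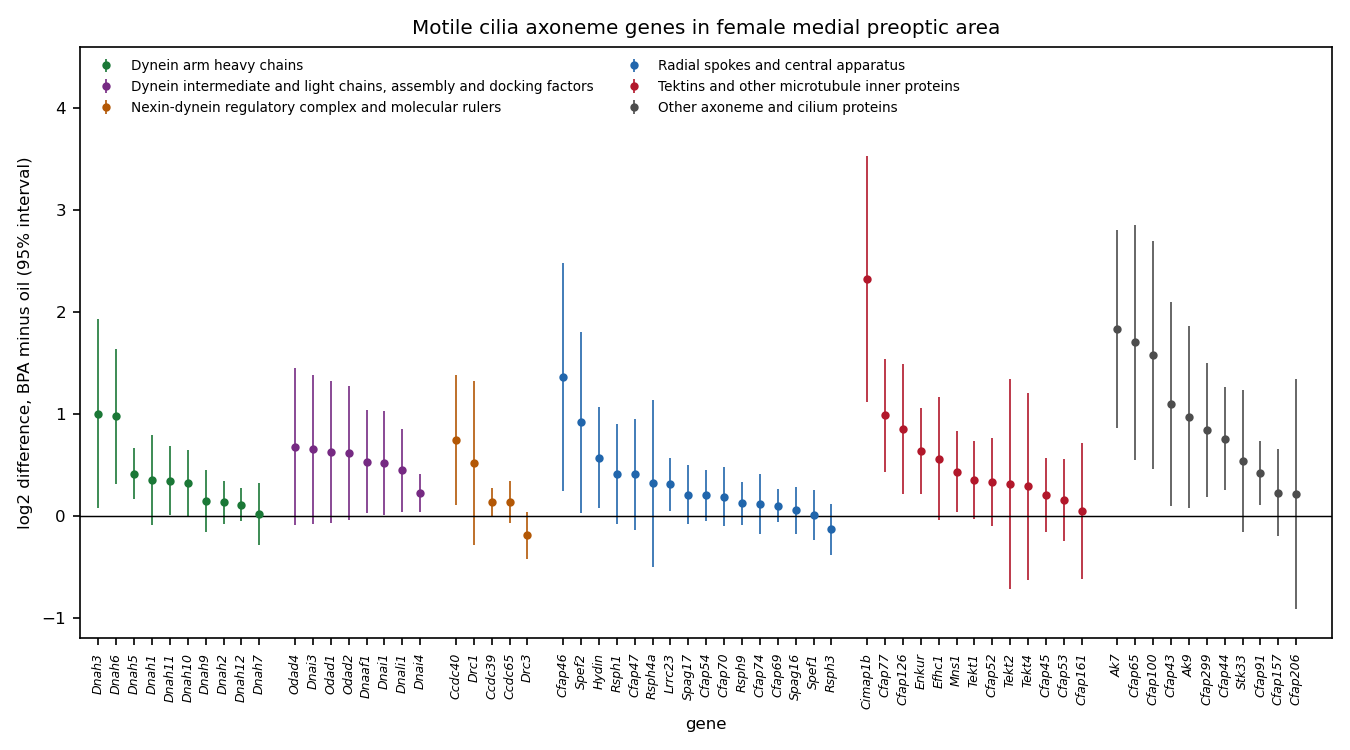
BPA minus oil difference of the 63 tested axoneme genes in females, on the log2 scale with 95% intervals, ordered by structural role and by size within each role (6 BPA and 5 oil libraries). Points lie above 0 for 61 genes, from 0.01 for Spef1 to 2.33 for Cimap1b, and below it for Drc3 and Rsph3.

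Markers of ependymal cells stood the same way. Of 18 in the table, 15 were tested and 14 were higher in BPA, with a median log2 difference of 0.84 and 6 at an unadjusted p under 0.05. Their summed level was 163, 176.2 and 226.9 CPM in BPA females as lowest, median and highest, against 130.2, 134.4, 147.3, 152.8 and 161.2 CPM in oil females. The groups did not overlap, by a margin of the lowest BPA library at 163 CPM over the highest oil library at 161.2 CPM. Tmem212, an ependymal membrane protein, had 4 to 32 counts per BPA library and 0 to 9 per oil library, and Dynlrb2, a dynein light chain, differed by 1.36 ± 0.59. Foxj1, the master regulator of motile cilia, had 1.6, 3.27 and 4.43 CPM in BPA females, against 1.85, 1.77, 2.26, 1.23 and 1.32 CPM in oil females. Its groups overlapped, and the log2 difference was 0.86 ± 0.41. Rarres2, secreted chemerin, was the 1 ependymal marker lower in BPA, at 17.2 to 25.3 CPM in BPA and 19.3 to 28.5 CPM in oil. Sntn, a tip protein of motile cilia, was at or near 0 in both groups. Of the ependymal list, 4 genes (Ak7, Enkur, Cfap126 and Tekt1) also belong to the axoneme list. Ak7, Enkur and Cfap126 are among the 6 at an unadjusted p under 0.05, as is Foxj1, so the ependymal values are not separate from the cilia values. Of other members, Pltp had medians of 71.2 CPM in BPA and 66.9 CPM in oil. Tm4sf1 had medians of 2.54 CPM in BPA and 2.45 CPM in oil, and Acta2 3.55 CPM in BPA and 1.89 CPM in oil, all with overlap.

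The summed axoneme genes, over all 71, were 963.9, 1108 and 1321 CPM in BPA females, against 848.7, 902.3, 910.3, 967.9 and 1020 CPM in oil females, with overlap of 1 BPA library. Markers of neighbouring cell types had medians closer to 0. Tanycytes, the elongated ventricle-lining cells of the hypothalamus, had summed markers of 749.5 to 909.4 CPM in BPA and 764.4 to 950.8 CPM in oil, with 6 of 10 higher and a median of 0.02. Choroid plexus markers were higher in 2 of 7 tested, with a median of -0.06. The other 5 of the 12, Ttr, Folr1, Aqp1, Cldn2 and Sostdc1, were not tested and have no part in that median. Whether the amount of ventricle wall in the dissected piece took part in the cilia values was not tested.

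**Figure D3:**
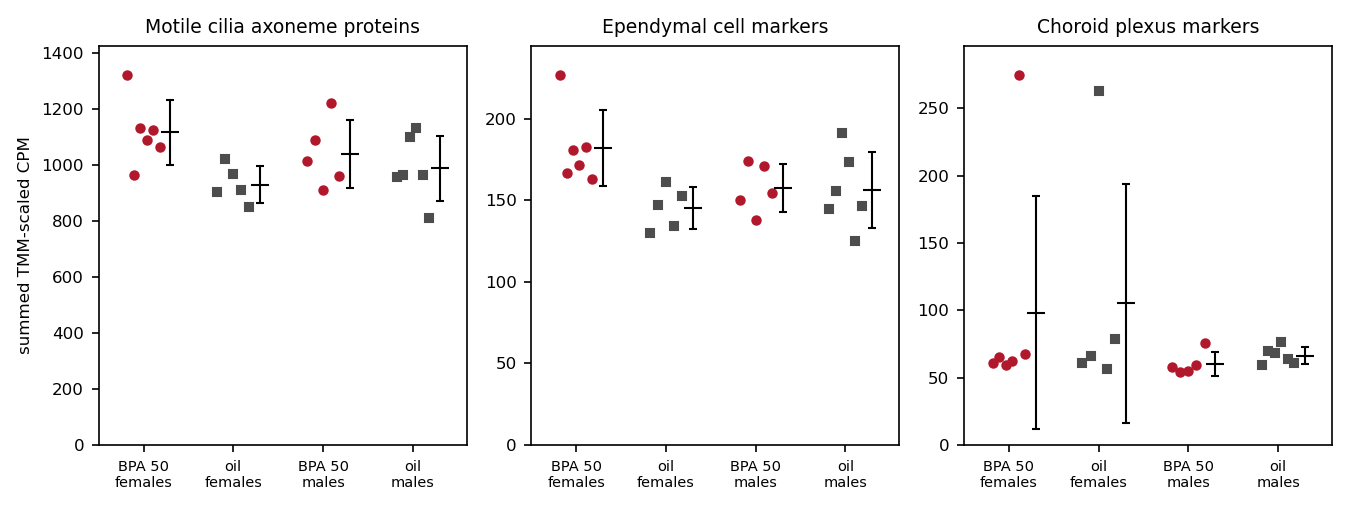
Summed level of the axoneme genes, the ependymal markers and the choroid plexus markers in each library, in TMM-scaled CPM on axes that start at 0, for BPA and oil females and BPA and oil males; the bar beside each group is its mean ± SD (6, 5, 5 and 6 libraries). Ependymal sums of the BPA females begin at 163 CPM, above the oil females' highest of 161.2 CPM, while the BPA males run from 138.1 to 174.2 CPM and the oil males from 125.4 to 191.2 CPM.

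Regulators of the multiciliated state and of the p53 family were higher in 15 of 19 tested, with a median of 0.12. Those at an unadjusted p under 0.05 were Tp73, Foxj1, Ccno, Myb and Cep152. Ccno, a cyclin-like protein needed to multiply centrioles, had 0.463, 1.01 and 5.25 CPM in BPA females, against 0, 1.42, 0.188, 0.176 and 0 CPM in oil females, and rests on 2 to 26 counts per BPA library and 0 to 8 per oil library. Myb, a transcription factor that acts before Foxj1 in multiciliated cells, differed by 1.14 ± 0.51 and Cep152, a scaffold of centriole duplication, by 0.38 ± 0.19. Deup1, which organises the deuterosomes where centrioles are made, differed by 0.51 ± 0.26. Mcidas and Gmnc, the initiators of this programme, were below the filter, with at most 10 and 4 counts in any of the 22 female libraries.

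Parts of the cilium that neurons share showed smaller differences. Transition zone genes were higher in 14 of 23, with a median of 0.06 and 4 at an unadjusted p under 0.05, B9d1, Tmem17 (0.42 ± 0.13), Rpgrip1 (0.25 ± 0.11) and Tctn3 (0.43 ± 0.20). Intraflagellar transport and Bardet-Biedl genes, which carry cargo along all cilia, were higher in 23 of 33 with a median of 0.02, led by Bbs7 (0.47 ± 0.14). Arl13b, a GTPase of primary cilia, had 43.1, 47.9 and 55.3 CPM in BPA females, against 43.1, 39.5, 46.0, 48.0 and 41.1 CPM in oil females, a log2 difference of 0.15 ± 0.07.

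Promoters of the axoneme genes were read for the half-site GTTGCC of the X-box, the motif bound by RFX factors, which drive cilia genes. The 250 bases before the annotated start were taken from RefSeq on GRCr8, a later build than the one named for the counts, and both strands were searched. Of the 63 axoneme genes tested, 49 had a promoter in the table, and 13 of these held the half-site (26.5%), against 1365 of 12969 promoters of genes tested (10.5%). It was in 5 of 20 transition zone promoters (25.0%) and 3 of 12 ependymal ones (25.0%). Among the genes with the lowest p, Tp73, Ak7, Cfap77, Dnah5, Dnah6 and B9d1 held none. The half-site of the estrogen response element, AGGTCA, was in 7 of the 49 (14.3%), against 1407 of the 12969 (10.8%). The full palindromic estrogen response element was in 0 of either set, and the ERR element TCAAGGTCA was in 0 of the 49 and 30 of the 12969 (0.231%); both hold the AGGTCA half-site or part of it. A match describes letters and is not a binding site. The X-box half-site was carried by 6 axoneme genes at an unadjusted p under 0.05, Cimap1b, Cfap44, Cfap46, Hydin, Lrrc23 and Dnah10. Tekt1, Cfap47, Drc1, Dnah2, Cfap74, Tekt2 and Cfap161 carried it too and were not at that p. The half-site was thus not confined to genes at that p, and whether it goes with the BPA difference was not tested. Promoters of the 4 described above are shown 5′ to 3′ on the gene's strand, with the X-box half-site or its reverse complement in capitals. They lie on GRCr8 at chr7:122326922-122327171 (minus strand) for Cimap1b, chr11:69789906-69790155 (minus) for Cfap44, chr1:203912387-203912636 (minus) for Cfap46 and chr19:55146216-55146465 (plus) for Hydin.
Cimap1b: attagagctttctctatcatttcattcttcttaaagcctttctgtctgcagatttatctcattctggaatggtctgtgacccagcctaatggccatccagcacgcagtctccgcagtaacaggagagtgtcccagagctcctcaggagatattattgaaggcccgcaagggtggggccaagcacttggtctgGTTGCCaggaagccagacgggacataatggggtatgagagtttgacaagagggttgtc
Cfap44: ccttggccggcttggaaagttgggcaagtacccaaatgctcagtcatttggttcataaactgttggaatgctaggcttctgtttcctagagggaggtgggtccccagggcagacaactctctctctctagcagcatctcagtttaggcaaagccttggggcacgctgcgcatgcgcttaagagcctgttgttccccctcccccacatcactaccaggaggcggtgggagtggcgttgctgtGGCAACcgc
Cfap46: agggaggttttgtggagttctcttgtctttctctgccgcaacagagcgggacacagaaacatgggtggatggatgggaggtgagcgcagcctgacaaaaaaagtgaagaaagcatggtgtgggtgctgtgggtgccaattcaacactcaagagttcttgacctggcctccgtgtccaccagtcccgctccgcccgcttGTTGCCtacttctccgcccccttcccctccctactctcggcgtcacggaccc
Hydin: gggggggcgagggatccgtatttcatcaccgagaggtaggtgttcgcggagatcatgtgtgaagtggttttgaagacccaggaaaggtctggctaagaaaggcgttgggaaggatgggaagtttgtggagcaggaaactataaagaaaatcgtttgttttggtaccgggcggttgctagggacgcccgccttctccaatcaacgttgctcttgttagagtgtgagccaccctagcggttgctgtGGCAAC
The half-site began 58 bases before the start in Cimap1b, 9 in Cfap44, 52 in Cfap46 and 6 in Hydin.

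Receptors for gonadal steroids and the enzymes that make them were near level. Of 14 tested, 5 were higher, the median was -0.03, and 1 was higher and 1 lower at an unadjusted p under 0.05. Esr1, estrogen receptor alpha, had 9.99, 14.3 and 17.8 CPM in BPA females, against 16.1, 11.5, 15.1, 16.7 and 17.2 CPM in oil females, and the groups overlapped across most of their range. The log2 difference was -0.16 ± 0.15, with an interval of -0.46 to 0.15. The interval was wider for Esr2, estrogen receptor beta (-0.55 to 0.49). The progesterone receptor Pgr, an estrogen-induced gene, had an interval of -0.37 to 0.31, and Cyp19a1, the aromatase that makes estradiol, one of -0.91 to 0.23.

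Gper1, a membrane receptor that responds to estrogens, had 0.572, 0.841 and 2.09 CPM in BPA females, against 2.04, 2.83, 2.45, 1.23 and 1.13 CPM in oil females, a log2 difference of -0.97 ± 0.37. Greb1, a coactivator induced by estrogen, had 4.0, 4.74 and 5.85 CPM in BPA females, against 3.89, 3.54, 2.83, 2.29 and 4.53 CPM in oil females (0.51 ± 0.20). In both genes the groups overlapped.

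Esrrg had 114.3, 131.0 and 141.8 CPM in BPA females, against 127.6, 123.5, 160.1, 157.4 and 129.0 CPM in oil females. The ranges crossed, and the log2 difference of -0.12 ± 0.12 had an interval of -0.36 to 0.13. Of 11 estrogen-related receptors and coactivators, 5 were higher, 0 were at an unadjusted p under 0.05, and the median was -0.04. Esrra differed by 0.20 ± 0.12, Esrrb by -0.30 ± 0.27, and Ppargc1a, a coactivator of mitochondrial genes, by -0.14 ± 0.07. Other nuclear receptors were higher in 12 of 24 with none at that p, and Nr4a1, an activity-induced orphan receptor, differed by -0.33 ± 0.20.

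Signals between preoptic neurons differed little where they could be tested. Neuropeptides were higher in 11 of 18 tested with none at an unadjusted p under 0.05, and the lowest p were those of Agrp (0.32 ± 0.21) and Trh (0.29 ± 0.19). Another 11 of the 29 neuropeptides were below the filter. Among them were Gal, Avp and Oxt, with at most 11, 8 and 3 counts in any of the 22 female libraries. Of 25 receptors for peptides and hormones, 12 were higher, and Sstr3, the somatostatin receptor of primary cilia, was the 1 at that p. Sstr3 had 2.55, 4.32 and 5.14 CPM in BPA females, against 3.15, 2.30, 2.45, 1.94 and 2.45 CPM in oil females, with overlap and a log2 difference of 0.74 ± 0.23.

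Lists of transmission leaned to lower values. Synaptic vesicle and scaffold genes were lower in 36 of 44 (median -0.06), against 50.3% of all genes tested, genes of GABA and glycine transmission in 21 of 27 (median -0.05) and glutamate receptors and transporters in 19 of 28 (median -0.03). In these 3 lists 1 gene was at an unadjusted p under 0.05, Rims1, a scaffold of the presynaptic active zone. Rims1 had 337.1, 350.2 and 390.2 CPM in BPA females, against 387.9, 398.9, 402.9, 365.5 and 369.5 CPM in oil females, and the log2 difference was -0.12 ± 0.06. Gabra3, a subunit of the GABA-A receptor, lay wholly lower in BPA, at 71.4 to 79.1 CPM against 79.8 to 87.6 CPM in oil (-0.14 ± 0.07). Pan-neuronal markers were higher in 2 of 15, with a median of -0.07.

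Cytosolic ribosomal proteins were higher in 66 of 68, but by little. Their median log2 difference was 0.06 and 5 were at an unadjusted p under 0.05, with Rps9 at 0.22 ± 0.07 and Rpl27 at 0.15 ± 0.06. Their summed level was 22400 to 24600 CPM in BPA females and 22050 to 23370 CPM in oil females, with overlap. Nuclear-encoded genes of oxidative phosphorylation were higher in 37 of 68 with a median of 0.00. The lists of DNA methylation, thyroid, glucocorticoid, cholesterol and immediate early genes had medians between -0.03 and 0.02. In them the DNA methyltransferase Dnmt3b (0.48 ± 0.23), its partner Dnmt3l (0.61 ± 0.26) and Btg2, an antiproliferative early gene (0.55 ± 0.22), were at an unadjusted p under 0.05. Nqo1, a quinone-detoxifying enzyme induced through Nrf2 and the aryl hydrocarbon receptor, had 5.33, 10.7 and 11.8 CPM in BPA females, against 6.85, 9.91, 5.84, 5.98 and 7.73 CPM in oil females, with overlap (0.44 ± 0.18), while Ahr, that receptor, differed by -0.27 ± 0.14.

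Families of the lower genes were mixed in direction. Of 10 tested paraneoplastic Ma genes and Arc, 5 were higher, and Pnma2 was the 1 at an unadjusted p under 0.05. Of 10 nephrin and Kirrel family genes, 4 were higher. Kirrel3, the paralogue of Kirrel2, also leaned lower, at 515.1 to 571.7 CPM in BPA females and 546.9 to 642.3 CPM in oil females, with overlap. The summed family had a median of 1812 CPM in BPA females and 1910 CPM in oil females, and its groups overlapped too. Of 20 amino acid and monoamine carriers, 10 were higher, with Slc7a14 and Slc7a4 (-0.33 ± 0.13) lower at that p.

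Markers of cell types other than ependyma had medians closer to 0, with a few that leaned. Cholinergic markers were higher in 0 of 9, with a median of -0.30, but none was at an unadjusted p under 0.05. That median ran from -0.48 without oil replicate 3 to -0.084 without oil replicate 5. Their summed level was 143.1 to 345.7 CPM in BPA females and 161.6 to 409.1 CPM in oil females. Chat, the acetylcholine-making enzyme, had 15.3, 22.6 and 42.1 CPM in BPA females, against 38.3, 26.2, 18.1, 25.2 and 56.6 CPM in oil females, a wide overlap. Markers of immature neurons and progenitors were higher in 13 of 16 with a median of 0.18. Their summed levels overlapped, at 2220 to 2816 CPM in BPA and 2051 to 3094 CPM in oil. Top2a, a topoisomerase of dividing cells, had 19.7, 23.8 and 40.2 CPM in BPA females, against 18.5, 23.5, 20.7, 19.5 and 17.4 CPM in oil females (0.44 ± 0.16). In the same list the medians in BPA and oil were 22.5 and 22.4 CPM for Mki67, and 6.02 and 3.87 CPM for Cdk1. Red blood cell markers were higher in 1 of 10 (median -0.11) and pericyte, fibroblast and meningeal markers in 13 of 20 (median 0.11). With 1 library left out the red blood cell median ran from -0.20 to -0.012 and the pericyte, fibroblast and meningeal median from -0.029 to 0.21, below 0 without BPA replicate 2 or oil replicate 2. Astrocyte markers were higher in 9 of 15 with a median of 0.02, with Gfap, an astrocyte filament protein, at -0.37 ± 0.17 and Fgfr3 at -0.27 ± 0.13. Preoptic region markers were higher in 9 of 17 (median 0.03) and striatal ones in 5 of 20 (median -0.09, and above 0 without oil replicate 3 or BPA replicate 6, at 0.035 and 0.029). Their summed levels overlapped, at 1269 to 1527 CPM in BPA and 1177 to 1557 CPM in oil for preoptic markers, and 2067 to 3266 CPM in BPA and 2411 to 3781 CPM in oil for striatal ones. Meis2 and Foxp2, with medians of 644.2 and 491 CPM in BPA and 652.6 and 514 CPM in oil, made up most of the preoptic sum. Scarcer members such as Nkx2-1 (medians 7.33 CPM in BPA and 7.54 CPM in oil) weigh little in it. The overlap therefore does not show a like preoptic share. The preoptic sum was also lowest where the striatal sum was lowest, in BPA replicate 6 among BPA libraries and in oil replicate 5 among oil libraries. Whether Meis2 and Foxp2 stand for preoptic tissue in these libraries was not tested.

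**Figure D4:**
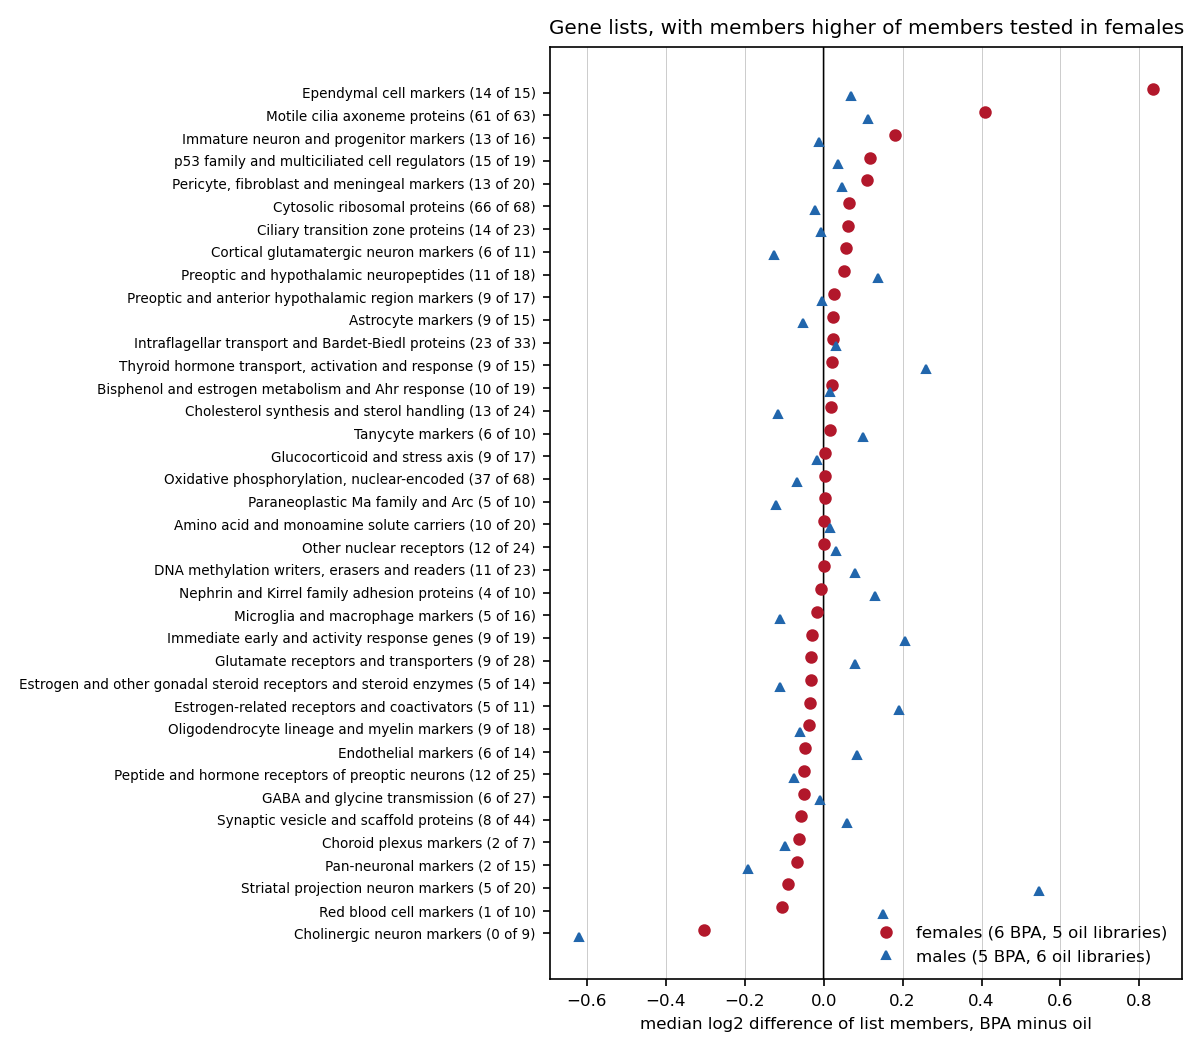
Median log2 difference, BPA minus oil, of the tested members of 38 gene lists in females (circles) and males (triangles), with the number higher of those tested in females beside each name; the vertical line is the median over all genes tested in females. Ependymal markers (0.84) and axoneme genes (0.41) stand highest in females, against 0.07 and 0.11 in males.

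Brothers of these pups gave a comparison in other libraries. Of the 6 BPA litters 5 had a male library, as had all 5 oil litters, and the male groups held 5 BPA and 6 oil libraries. No gene was called in males (0% of 18426). Of the 12 higher genes, 11 were tested in males and 5 were higher there, and of the 12 lower genes 9 were lower in males. None of them was at an unadjusted p under 0.05 in the same direction, where 5.91% of all genes in males were higher and 5.43% lower at that p. Over 18137 genes tested in both sexes the log2 differences had the same sign in 51.5%, with a Pearson correlation of 0.07 across genes, which are not independent replicates.

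Axoneme genes were higher in 48 of 60 in BPA males with a median of 0.11, and ependymal markers in 11 of 15 with a median of 0.07. Tp73 averaged 4.14 ± 0.53 CPM in BPA males and 3.39 ± 1.54 CPM in oil males (SD, n = 5 and 6), a log2 difference of 0.31 ± 0.32. Ak7 averaged 4.0 ± 2.06 CPM in BPA males and 3.81 ± 2.40 CPM in oil males. The log2 difference of Foxj1 was 0.86 ± 0.41 in females and 0.89 ± 0.31 in males.

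The female minus male difference of the BPA effect was itself tested over all 45 libraries, and 0 of 19026 genes were called (0%), with 1354 at an unadjusted p under 0.05 (7.12%). That fit left out that brothers and sisters share litters, and with the litter as a random block in voom 1 gene was called, Lmbr1 (female minus male -0.39 ± 0.07, adjusted p = 0.0478). The 24 genes were chosen by their p in females, which favours a distance from the male value, so their values are given without this test. Sardh was at 0.68 in BPA females and -0.31 in BPA males, and Ak7 at 1.84 in females and 0.09 in males. At an unadjusted p under 0.05 of this test were 7 of the axoneme genes, of the synaptic list 9 of 44 and of the glutamate list 9 of 28, the last 2 being higher in BPA males for 27 of 44 and 18 of 28 genes, against 50% of all genes tested in males. Striatal projection neuron markers were higher in 19 of 20 in BPA males, with a median of 0.54, against 5 of 20 in BPA females, and their part in the values of males was not tested. Esrrg differed by -0.12 ± 0.12 in females and 0.28 ± 0.15 in males.

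**Figure D5:**
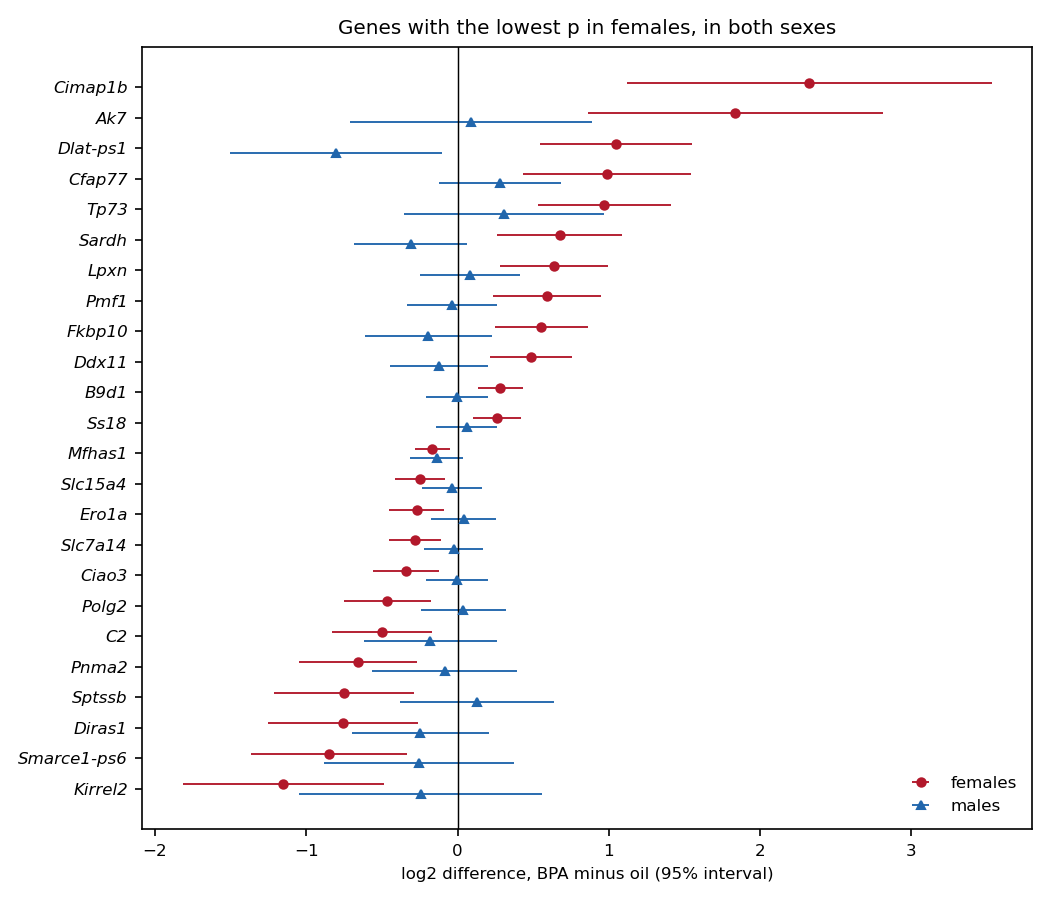
BPA minus oil differences on the log2 scale with 95% intervals for the 24 genes with the lowest p in females, in females (circles; 6 BPA and 5 oil libraries) and males (triangles; 5 BPA and 6 oil libraries); Cimap1b was below the filter in males. The genes were chosen by their p in females, and Dlat-ps1 lies at -0.80 in males against 1.05 in females.

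Females exposed to the mixture of equal parts BPA, bisphenol S and bisphenol F were set beside these values. They share the oil libraries with the BPA comparison, so agreement in direction is no separate support. Axoneme genes had a median log2 difference from oil of 0.41 after BPA, 0.20 after the mixture at 50 µg/kg and 0.36 after the mixture at 150 µg/kg, with 61, 52 and 60 of 63 higher. The log2 difference of Tp73 from oil was 0.97 after BPA, 0.47 after the mixture at 50 µg/kg and 0.49 at 150 µg/kg. For Kirrel2 it was -1.15, -0.66 and -1.09, and for Pnma2 -0.66, -0.38 and -0.34. Set directly against BPA, the mixture at 50 µg/kg had 9 of the 63 axoneme genes higher with a median of -0.21, against 9378 of all 18354 genes tested. The mixture at 150 µg/kg had 26 higher with a median of -0.03, against 9380 of all genes. Tp73, Kirrel2 and Pnma2 were chosen by their p between BPA and oil, and cilia genes with earlier results known. Both choices favour larger values after BPA than after the mixture.

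Maternal care was compared between the litters. Licking/grooming averaged 362.4 ± 106.3 in BPA litters and 347 ± 160.3 in oil litters (SD, n = 6 and 5, unit not given in the labels; two-sided exact permutation p = 0.844). Nest attendance averaged 1670 ± 435.6 in BPA litters and 1712 ± 419.2 in oil litters (exact permutation p = 0.861). The library total differed by -562900 counts on average, at 4967000 ± 412000 counts in BPA and 5530070 ± 163500 counts in oil (exact permutation p = 0.0216, 0.0648 adjusted over the 3 measures). The part of depth in the values above was not tested.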

How the data were processed

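Messenger RNA of the medial preoptic area was counted per gene by 3' Tag-seq in 22 female and 23 male pups. The authors deposited raw whole-number counts, 1 table per sex, both marked as having had outlying libraries removed. Per the submitters' processing notes, the tools included bedtools 2.27.1, SAMtools 1.10, STAR 2.7.3a and cutadapt 1.18, and the build was mRatBN7.2. How they were run, with which annotation, and whether counting used strand is not given in the sources used here, so reads of a gene and its antisense or overlapping partner may be mixed. Per the labels' protocols, an extraction kit for fixed material was applied to frozen tissue. All count columns matched a library by name (0 unmatched). Female libraries held 4397460 to 7223180 counts. No molecular identifiers are stated.

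The main test was edgeR 4.0.16 in R 4.3.3, with filterByExpr (minimum count 10, minimum total 15), TMM scaling and robust quasi-likelihood F-tests, and Benjamini-Hochberg adjustment at 0.05. The 4 exposure groups of females shared 1 fit, which gave log2 differences. Of 40643 genes 18354 were tested, 3320 of these without an assigned symbol. Levels are TMM-scaled CPM. Within each sex every library is 1 pup of a separate litter, and some litters gave both a female and a male library. The fits were tested on simulated data. Alternatives used DESeq2 1.42.0, limma 3.58.1 (voom), RLE scaling, other filters, fewer libraries, the replicate number as a block and care as covariates. Care and totals were compared by exact permutation in scipy 1.17.1.

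The genes named were the 12 of lowest p on each side, any gene called by an alternative, Esrrg, Esr1, Esr2, Pgr and Cyp19a1, and up to 4 members of lowest p from each of 38 lists, with family members and marker genes given as values; not every gene so chosen is reported here. The comparison and the lists were chosen with earlier results of these data known. Of 869 list genes, 864 were in the tables. Promoters came from RefSeq tables on GRCr8, matched by symbol.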

Additional observations from a re-analysis of the deposited data

Results flagged for a closer look

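Of 200 groups of values examined, 16 held 1 library far from the others by Dixon's criterion, which by chance flags about 1 in 20 groups; 8 were BPA groups and 8 oil groups. BPA replicate 1 stood highest among BPA females in Dnah6 (13.3 CPM, next 8.33), Dnai1 (16.2 CPM, next 12), Ccno (5.25 CPM, next 2.13), Dynlrb2 (15.8 CPM, next 7.65) and the summed ependymal markers (226.9 CPM, next 183). In Gper1 BPA replicate 2 stood highest (2.09 CPM, next 1.06), and in Rims1 BPA replicate 6 (390.2 CPM, next 350.8). The summed choroid plexus markers reached 274.8 CPM in BPA replicate 5 (next 67.5) and 263.3 CPM in oil replicate 3 (next 78.8).

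Among oil females, replicate 2 stood highest in Ccno (1.42 CPM, next 0.188), Dnmt3b (3.89 CPM, next 2.64), the summed markers of immature neurons and progenitors (3094 CPM, next 2203) and nest attendance of its dam (2434, next 1645), and lowest in Lpxn (2.83 CPM, next 3.96). Oil replicate 3 stood lowest in B9d1 (26.0 CPM, next 27.5) and oil replicate 5 in Ak7 (1.13 CPM, next 2.22).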

How the results depend on the processing

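The count of 0 called genes was the same in every alternative run (DESeq2, voom with quality weights, RLE scaling, no filter, a minimum count of 30, care as covariates, the replicate block, any 1 library left out, range 0 to 0, and both libraries high in choroid plexus markers left out, which was chosen after seeing the data), except in the fit of BPA and oil libraries only, which called 1 gene, Pnma2 (log2 difference -0.66, adjusted p = 0.0152). Genes at an unadjusted p under 0.05 numbered 667, from 565 to 827 with 1 library left out, and 1309 with no filter. For the female minus male difference 0 genes were called (range 0 to 0 with 1 library left out, with 1354 at an unadjusted p under 0.05 and 2070 with no filter), and 1 with the litter as a random block in voom, Lmbr1 (-0.39 ± 0.07, adjusted p = 0.0478), at -0.11 in BPA females and 0.29 in BPA males. The axoneme median of 0.41 ranged from 0.31 to 0.48 with 1 library left out, and the members higher from 58 to 61. Members higher at an unadjusted p under 0.05 ranged from 14 to 31, lowest without BPA replicate 1 or oil replicate 5 (14 each), and 17 without oil replicate 4. Over 1640 other values of 88 genes chosen by the rule, 2 genes turned direction, both near 0. Esr2 (-0.03) became 0.062 with voom and 0.038 with the replicate block, and ranged from -0.21 to 0.16 with 1 library left out, above 0 without oil replicate 1 (0.16), oil replicate 4 (0.11), BPA replicate 6 (0.059) or BPA replicate 2 (0.039). Pgr (-0.03) became 0.033 with the replicate block, and ranged from -0.11 to 0.063 with 1 library left out, above 0 without oil replicate 1 (0.063), oil replicate 5 (0.044) or BPA replicate 1 (0.036). The medians of 24 of the 38 lists, none above 0.11 in size, changed sign in at least 1 alternative, among them pericyte, fibroblast and meningeal (0.11, -0.029 to 0.21 with 1 library left out), striatal (-0.09, -0.16 to 0.035), choroid plexus (-0.06, -0.14 to 0.0070), immediate early (-0.03, -0.076 to 0.092) and tanycyte (0.02, -0.030 to 0.064) genes, and 14 kept their sign. The difference in licking/grooming, 15.4, ranged from -42.0 to 65.3 with 1 library left out and was negative without BPA replicate 4 (-15.2) or oil replicate 5 (-42.0). That in nest attendance, -42.5, ranged from -138 to 138 and was positive without BPA replicate 1 (40.0), BPA replicate 6 (81.0) or oil replicate 2 (138). That in library totals ranged from -677599 to -449000. The cause of these shifts was not tested. Same-numbered BPA and oil libraries did not deviate together (correlations of deviations -0.10, -0.15, 0.08, 0.01 and 0.06), so the replicate numbers were taken as names, and the replicate block called 0 genes. The smallest difference detectable with 11 libraries was not determined.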

Other observations

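Several single genes of lists that otherwise stood near 0 had differences at an unadjusted p under 0.05, given as values chosen by the rule for named genes. Cd163, a scavenger receptor of perivascular macrophages, had 0.399, 2.14 and 2.83 CPM in BPA females as lowest, median and highest, against 0.741, 0.354, 1.13, 1.06 and 1.13 CPM in oil females, with overlap and a log2 difference of 1.01 ± 0.41. Rgs5, a pericyte regulator of G protein signalling, differed by 0.49 ± 0.21, and Zic2, a patterning factor of the forebrain midline, by 0.32 ± 0.13. Zic2 differed by a like amount in BPA males, 0.31. Mobp, a myelin protein that is only beginning to be made at this age, was not at an unadjusted p under 0.05. It had 0.953, 4.31 and 10.4 CPM in BPA females, against 5.74, 1.06, 25.6, 3.69 and 9.43 CPM in oil females. For Mobp the spread within oil exceeded the difference between the groups (-0.95 ± 0.68).

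Cholinergic markers were lower in 9 of 9 in BPA females and in 9 of 9 in BPA males, with medians of -0.30 and -0.62. At an unadjusted p under 0.05, 3 were lower in BPA males, against 5.43% of all genes tested in males. Females of the mixture, set against the same oil females, had 0 of 9 higher at 50 µg/kg (median -0.31) and 1 of 9 at 150 µg/kg (median -0.14). With 1 library left out, the median in BPA females ran from -0.48 without oil replicate 3 to -0.084 without oil replicate 5. It also changed by more than 1.5-fold, up or down, without BPA replicate 1 or BPA replicate 6. In the same males striatal projection neuron markers were higher in 19 of 20, with a median of 0.54, and their part in these values was not tested. Prima1, the anchor of acetylcholinesterase, differed by -0.29 ± 0.20 in BPA females and by -0.44 in BPA males, and Ngfr by -0.36 ± 0.44 in BPA females and by -0.70 in BPA males. In neither sex did any gene pass the adjusted threshold.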
